A study of Mus musculus with 80 samples.

Results

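The 6 genes described here belong to maintenance methylation, the copying of CpG methylation onto the new DNA strand after replication. They are *Uhrf1*, *Uhrf2*, *Dnmt1*, *Hells*, *Usp7* and *Dppa3*, taken by symbol from a table of 25965 genes, together with the 146 bins of 2 kb that overlap them among the 1026637 bins of the H3K9me2 table. The study followed mouse embryonic stem cells (ESCs), the cultured pluripotent cells of the early embryo, as they moved from serum medium to 2i, in which serum is left out and the kinases MEK and GSK3 are inhibited, a move that goes with wide loss of DNA methylation. All samples used here were of the wild-type line E14, and LIF, the cytokine that keeps ESCs undifferentiated, was present in both media. RNA-seq had 4 groups of 3 libraries, which were serum and 6, 24 and 72 h of 2i. ChIP-seq for H3K9me2, the dimethylated lysine 9 of histone H3, had 3 groups of 2 bound libraries and 1 input each, namely serum, 2i for 24 h and LT2i, cells kept in 2i long term.

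UHRF1 reads hemimethylated CpGs and methylated H3K9 and brings DNMT1, the maintenance methyltransferase, to replicating DNA. HELLS is a chromatin remodeller that helps methylation reach packed chromatin, and USP7 is a deubiquitinase that protects both UHRF1 and DNMT1. UHRF2 is the close relative of UHRF1, which does not replace it in maintenance, and DPPA3 (also called PGC7 or STELLA) binds UHRF1 and can move it off chromatin. RNA and a histone mark are read here, so nothing below measures the proteins.

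The 6 genes lie on 5 chromosomes (GRCm38). *Dnmt1* is on chromosome 9 (20907206 to 20959888, minus strand), *Uhrf1* on chromosome 17 (56303321 to 56323486, plus), *Usp7* on chromosome 16 (8689595 to 8792308, minus) and *Dppa3* on chromosome 6 (122626410 to 122630272, plus). *Uhrf2* (30030513 to 30093722) and *Hells* (38930915 to 38971051) are both on the plus strand of chromosome 19. RefSeq (GRCm38.p6) has promoter entries for 5 of the 6 genes, with 8 starts between them, and stretches before 3 of these starts are shown because their CpG content and their H3K9me2, given further on, differ between genes. Of the 250 bases before each start, those that lie outside the gene in both the deposited table and RefSeq are printed, so the *Uhrf1* stretch (234 bases) and the *Uhrf2* stretch (167 bases, with 13 CpGs) end before the start. Each runs 5′ to 3′ on the strand of the gene, with every CpG in capitals. They cover chr9:20959889-20960138 for *Dnmt1*, chr17:56303087-56303320 for *Uhrf1* and chr19:30030263-30030429 for *Uhrf2*.
Dnmt1: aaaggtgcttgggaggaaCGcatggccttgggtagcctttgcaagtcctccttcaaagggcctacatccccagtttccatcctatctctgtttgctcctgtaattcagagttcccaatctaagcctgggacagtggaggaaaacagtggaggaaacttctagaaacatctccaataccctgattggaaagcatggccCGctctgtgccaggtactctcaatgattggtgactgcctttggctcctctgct
Uhrf1: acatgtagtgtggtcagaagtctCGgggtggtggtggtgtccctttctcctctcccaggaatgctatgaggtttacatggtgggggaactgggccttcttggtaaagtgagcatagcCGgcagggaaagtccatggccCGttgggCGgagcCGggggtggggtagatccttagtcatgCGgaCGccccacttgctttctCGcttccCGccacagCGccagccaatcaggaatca
Uhrf2: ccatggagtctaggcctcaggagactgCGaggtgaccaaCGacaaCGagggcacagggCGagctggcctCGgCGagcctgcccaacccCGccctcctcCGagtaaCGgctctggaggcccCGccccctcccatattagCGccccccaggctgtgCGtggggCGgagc

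The outermost *Dnmt1* start has 2 CpGs in the 250 bases before it, against a median of 6 over the 32851 promoters of the table. The outer *Uhrf1* start has 10 and the *Uhrf2* start 23. The inner *Uhrf1* start has 30, *Hells* has 28, the innermost *Dnmt1* start has 26 and *Usp7* has 55.

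*Uhrf1*, *Dnmt1* and *Hells* are known to follow the cell cycle, and E2F factors drive many genes of DNA replication. A search of the 250 bases before each start for TTTCCCGC, TTTCGCGC, TTTGCCGC or TTTGGCGC, or for the reverse complements GCGGGAAA, GCGCGAAA, GCGGCAAA and GCGCCAAA, found 1 match each at the innermost *Dnmt1* start, the inner *Uhrf1* start and the *Hells* start. Matches of different motifs were allowed to overlap. Such a match was present in 1.86% of all promoters. Each motif holds a CpG, and these starts had 26, 30 and 28 CpGs against the median of 6, so that share is not matched for CpG content. The 28 bases around each match, read on the strand of the gene with the matched letters in capitals, cover chr9:20952825-20952852, chr17:56304118-56304145 and chr19:38930918-38930945.
Dnmt1: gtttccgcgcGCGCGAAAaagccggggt
Uhrf1: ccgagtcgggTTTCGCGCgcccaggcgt
Hells: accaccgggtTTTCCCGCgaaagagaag
The match lay 219 bases before the *Dnmt1* start, 185 before the *Uhrf1* start and 62 before the *Hells* start. At 24 h of 2i the RNA of *Dnmt1* and *Hells* was lower and that of *Uhrf1* near its serum level, as the values below show. A role of E2F factors in this was not tested.

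RNA values are the deposited log2 values, corrected for gene length and shifted so that all 12 libraries share their 75th percentile. A gene was tested where its value was 0 or more in at least 3 of the 12 libraries, which 12306 genes and all 6 members met, and a change is the difference of mean log2 values in limma, called at an adjusted p under 0.05 over all genes tested. The 8 markers of pluripotent cells ran from 2.78 to 9.01 over all libraries. Of the markers of fibroblasts, the cells that serve as feeders, 2 of 7 passed the filter, *Col1a1* at 1.34 to 2.80 and *Thy1* at 0.16 to 1.07, while *Lum*, *Dcn* and *Postn* stayed at -3.27 or lower. The summed linear level of the 7 was 7.66 to 9.79 in serum, 8.12 to 8.92 at 6 h, 4.77 to 7.79 at 24 h and 4.54 to 4.99 at 72 h. The 6 markers of primitive endoderm stayed at 0.92 or lower and the 4 of trophectoderm at 1.46 or lower, and the summed linear level of the latter was 3.56 to 4.61 in serum, 3.77 to 4.24 at 6 h, 1.02 to 1.24 at 24 h and 3.13 to 3.73 at 72 h. Of the 8 markers of pluripotent cells 2 were called higher and 4 lower at 24 h, beside 62.9% of all genes in either direction. The largest rises and falls called at 24 h follow, at most 2 of each per cell type. For pluripotent cells *Nanog* (1.55) and *Esrrb* (0.58) rose and *Utf1* (-4.09) and *Lin28a* (-1.45) fell. The others were *Col1a1* (-0.60) for fibroblasts, *Gata4* (0.57) and *Dab2* (-1.16) for primitive endoderm, and *Hand1* (-2.13) and *Cdx2* (-2.03) for trophectoderm. The part of these cell types in the changes of the 6 genes was not tested. The third 24 h library stood nearer to serum than the other 2, with a slope of 0.64 when its change over all genes was set against theirs (1.18 and 1.07 for the others), so 24 h changes from serum are also given without it. For members called at 24 h they are also given without the 24 h library whose removal made them smallest.

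In serum, 4 of the genes stood close together on this length-corrected scale. *Usp7* had a mean of 6.09 ± 0.09 (SD, n = 3 here and for each mean below), *Uhrf1* 5.91 ± 0.13, *Hells* 5.84 ± 0.05 and *Dnmt1* 5.71 ± 0.18, and each overlapped its neighbour in this order. All 4 lay above 92% of the genes tested. *Dppa3* followed at 3.87 ± 0.13 and *Uhrf2* at 1.80 ± 0.02, and neither overlapped its neighbour. By 72 h *Uhrf1* (5.98 ± 0.10) and *Dppa3* (5.88 ± 0.37) were the highest and overlapped, with *Dnmt1* at 5.35 ± 0.31, *Usp7* at 5.33 ± 0.27, *Hells* at 4.67 ± 0.24 and *Uhrf2* at 1.76 ± 0.17.

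**Figure D1:**
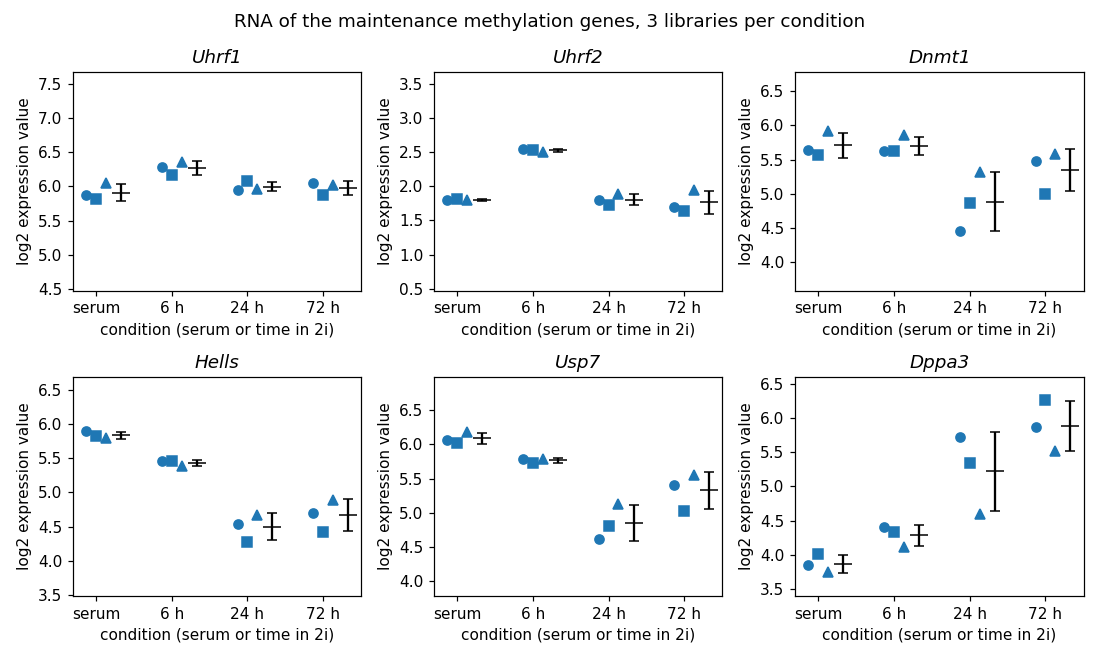
RNA of the 6 genes in each library (log2 expression value, y axis) by condition (x axis). Circles, squares and triangles are replicates 1, 2 and 3, and the bar beside them is the mean with its SD. Each panel spans the same number of log2 units, so that the rise of *Dppa3*, the falls of *Hells*, *Usp7* and *Dnmt1* at 24 h and the 6 h rise of *Uhrf2* can be compared by eye.

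*Uhrf1* RNA rose slightly at 6 h and was near its serum level afterwards. The serum libraries read 5.87, 5.81 and 6.05, and the 6 h libraries read 6.29, 6.17 and 6.36, all above them. In such bulk samples more cells that express a gene and more RNA per cell cannot be told apart. At 24 h the values were 5.95, 6.07 and 5.96, and at 72 h they were 6.05, 5.87 and 6.01, and both groups overlapped serum. The rise at 6 h measured 0.36 (limma, SE 0.11, adjusted p 0.0422, a fold of 1.28), and 2 of the 6 members were called at this time against 15.7% of all genes tested. This call was lost when any of 5 of the 6 libraries was left out (adjusted p 0.0652 to 0.164), with no filter on low values (0.0749), after quantile normalisation (0.0896) and after removal of a trend with gene span (0.0576). At 24 and 72 h the change was 0.08 (95% interval -0.15 to 0.32, limma adjusted p 0.499) and 0.07 (-0.17 to 0.30, limma adjusted p 0.619). Without the third 24 h library the former was 0.10.

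*Uhrf2* was the other gene called at 6 h, and at 24 h it was lower again. Its serum values were 1.79, 1.82 and 1.79, and at 6 h it stood at 2.54, 2.53 and 2.49, well above all 9 other libraries. At 24 h it read 1.80, 1.73 and 1.88, and at 72 h 1.70, 1.64 and 1.95, both overlapping serum. The 6 h change was 0.72 (SE 0.10, limma adjusted p 0.000672, 1.65-fold), and the step down from 6 to 24 h was -0.72 (adjusted p 0.000257). The 24 h change was 0.004 with all libraries and -0.035 without the third 24 h library, but with the span trend removed it was 0.30 and called (adjusted p 0.0109), and the step down was -0.39. *Uhrf2* remained about 4 log2 units under *Uhrf1* throughout. Over all 12 libraries the values of the pair correlated with a Pearson r of 0.81, given as a description of 4 conditions that share this 6 h peak.

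*Dnmt1* RNA was lower than in serum at 24 h, and its 72 h libraries overlapped both serum and 24 h. Serum read 5.63, 5.57 and 5.91 and 6 h read 5.63, 5.62 and 5.86, which overlap. At 24 h the libraries read 4.46, 4.86 and 5.32, all below serum and widely spread, with the third library nearest to serum. At 72 h they read 5.48, 4.99 and 5.58, of which the last lay within the serum range. The change was -0.00 at 6 h (95% interval -0.48 to 0.47, limma adjusted p 0.995), -0.83 at 24 h (SE 0.22, adjusted p 0.00680, to 56.4% of serum) and -0.36 at 72 h (-0.84 to 0.12, adjusted p 0.191). The step from 24 to 72 h was 0.47 (limma adjusted p 0.118), and its call depended on the libraries and the model. It was 0.26 (0.389) without the first 24 h library. It was called without the third 24 h library (0.69, adjusted p 0.0137) or the second 72 h library (0.65, 0.0417), and with a replicate block (0.0387). The third library was the highest of its group at every time. Without the second 72 h library the 72 h change from serum was -0.18. At 24 h, 4 of the 6 members were called against 62.9% of all genes tested, and at 72 h 3 of 6 against 51.7%, so both shares were near those of all genes. Without the third 24 h library the *Dnmt1* change at 24 h was -1.05 (limma adjusted p 0.000728), and without the first it was -0.62 (0.0267). With the span trend removed it was -0.585 (0.0117).

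*Hells* had the largest fall of the 6 genes at 24 and 72 h. It read 5.89, 5.83 and 5.79 in serum and 5.46, 5.46 and 5.39 at 6 h. At 24 h it read 4.53, 4.28 and 4.67, and at 72 h 4.70, 4.42 and 4.89. The 3 times in 2i were thus each below every serum library. The change was -0.40 at 6 h (adjusted p 0.0719), -1.34 at 24 h (SE 0.14, limma adjusted p 1.50e-05, to 39.5% of serum) and -1.16 at 72 h (adjusted p 3.75e-05, to 44.6%), and without the third 24 h library the second of these was -1.43. The 6 h change was past the threshold in a fit of the serum and 6 h libraries alone (0.00626), and with the span trend removed (0.0235). The 24 h change was -1.23 without the second 24 h library and -1.20 with the span trend removed.

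*Usp7* was lower at 24 and 72 h, by less at the later time. It read 6.06, 6.02 and 6.18 in serum, 5.79, 5.73 and 5.78 at 6 h, 4.61, 4.80 and 5.13 at 24 h and 5.41, 5.03 and 5.55 at 72 h. Every 2i library lay below every serum library, and the 24 and 72 h libraries overlapped. The change was -0.32 at 6 h (adjusted p 0.230), -1.24 at 24 h (SE 0.16, limma adjusted p 7.03e-05, to 42.3% of serum) and -0.76 at 72 h (adjusted p 0.00209, to 59.2%). The 6 h change was past the threshold in a fit of the serum and 6 h libraries alone (0.0202), and with the span trend removed (0.0179). Without the third 24 h library the 24 h change was -1.38, and without the first it was -1.12. With the span trend removed it was -0.84 (limma adjusted p 1.84e-05). The step from 24 to 72 h was 0.48 (SE 0.16, adjusted p 0.0394), the sole one of the 6 called there against 31% of all genes tested. That step was not called without the first or second 24 h library or without the first or the third 72 h library (0.108 to 0.142), and it was 0.20 (0.109) with the span trend removed, so it rests on single libraries and on the scaling. *Dppa3*, with a step of 0.66 (0.0747), was called in its place after quantile normalisation (0.00648) and with the span trend removed (0.00116), and also without the first 24 h library (0.0242). The deposited span of *Usp7*, 102.7 kb, reaches well past the RefSeq start at 8738342, and no source used here says which bases of it were counted.

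*Dppa3* RNA was higher at 24 and 72 h, the 1 member called higher at these times. It read 3.84, 4.01 and 3.75 in serum, 4.41, 4.33 and 4.11 at 6 h, 5.72, 5.34 and 4.60 at 24 h and 5.88, 6.26 and 5.52 at 72 h. Each time in 2i lay above all serum libraries, and the third library was the lowest of its group at every time. The change was 0.41 at 6 h (95% interval -0.16 to 0.99, adjusted p 0.375), 1.35 at 24 h (SE 0.26, limma adjusted p 0.00113, 2.55-fold) and 2.02 at 72 h (adjusted p 8.16e-05, 4.05-fold). The 6 h change was past the threshold in a fit of the serum and 6 h libraries alone (0.0305). Without the third 24 h library the 24 h change was 1.67, and without the first it was 1.10. With the span trend removed it was 0.93 (limma adjusted p 0.000479). RefSeq lists a pseudogene, *Dppa3-ps*, on chromosome X, and no source used here says how reads shared with it were counted.

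**Figure D2:**
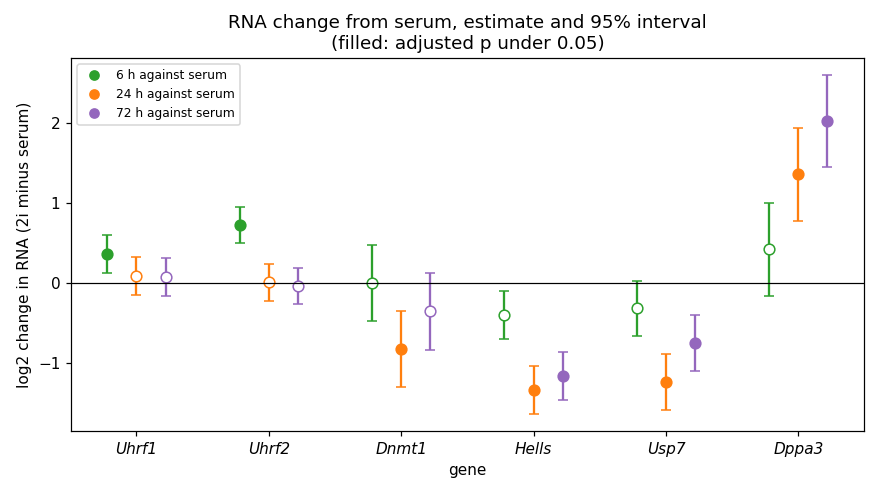
Log2 change in RNA from serum (y axis) for each gene (x axis) at 6 h (green), 24 h (orange) and 72 h (purple), with 95% intervals from limma. Filled circles passed an adjusted p of 0.05. The 3 comparisons share the same serum libraries. *Uhrf1* and *Uhrf2* are filled at 6 h alone, and *Dppa3* reaches 2.02 at 72 h.

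Between 6 and 24 h all 6 genes were called, 5 lower (28% of all genes tested) and *Dppa3* higher (31.2%), against 59.2% in either direction. The steps were -0.94 for *Hells* (adjusted p 0.000284), -0.92 for *Usp7* (0.000744), -0.82 for *Dnmt1* (0.00802), -0.72 for *Uhrf2*, -0.27 for *Uhrf1* (0.0443) and 0.94 for *Dppa3* (0.0106). With the span trend removed they were smaller for *Usp7* (-0.49), *Uhrf2* (-0.39), *Dppa3* (0.50), *Dnmt1* (-0.56) and *Hells* (-0.775) and larger for *Uhrf1* (-0.387). After quantile normalisation the *Uhrf1* step was -0.54. All 6 genes were called in both settings. The *Uhrf1* step was not called without the third 24 h library (0.0744) nor in 4 of the 5 other fits that left out 1 library (0.0531 to 0.141), nor with no filter on low values (0.0774) or with only the 6 libraries compared (0.108). Over all genes tested the median change from serum came to 0.011 at 6 h, then 0.105 and -0.005 at the later times.

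By overlap alone, the 3 libraries of a 2i group lay apart from the 3 of serum for 5 of the 6 genes at 6 h, against 44.4% of all genes tested, for 4 at 24 h, against 64.7%, and for 3 at 72 h, against 63.5%. The 6 and 24 h libraries lay apart for all 6, against 61.8%, and the 24 and 72 h libraries for 0 of 6, against 33.5%. With 6 genes, a share of 4 in 6 or 3 in 6 is near that of all genes at 24 and 72 h.

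Levels were also set against each other within each library, where a shift common to all its genes drops out. A trend with gene span does not, and the spans were 20.2 kb for *Uhrf1*, 52.7 kb for *Dnmt1* and 3.9 kb for *Dppa3*. With that trend removed, the 24 h changes of these genes from serum were -0.06, -0.585 and 0.93, in place of 0.08, -0.83 and 1.35. The ratios were not computed with it removed. With 3 libraries against 3, the smallest p an exact permutation test can give is 0.1, so none of the 9 comparisons could pass 0.05. *Uhrf1* minus *Dnmt1* was 0.23, 0.24 and 0.14 in serum and 0.66, 0.55 and 0.50 at 6 h. It was 1.49, 1.21 and 0.64 at 24 h and 0.58, 0.87 and 0.44 at 72 h. The balance of reader to enzyme RNA was thus higher in every 2i library than in any serum library, by 0.36, 0.91 and 0.43 at the 3 times (exact p 0.1 two-sided, adjusted 0.15, for each). Without the third 24 h library the second of these was 1.15. *Dppa3* minus *Uhrf1* was -2.02, -1.80 and -2.30 in serum and -1.88, -1.84 and -2.25 at 6 h, which overlap. It then came to -0.23, -0.73 and -1.36 at 24 h and -0.18, 0.39 and -0.50 at 72 h, so that *Dppa3* RNA, far under *Uhrf1* in serum, lay near it after 72 h (difference 1.95, exact p 0.1, adjusted 0.15). *Uhrf1* minus *Uhrf2* was 4.11 ± 0.14 in serum and 3.75 ± 0.11 at 6 h without overlap, and 4.19 ± 0.14 and 4.22 ± 0.14 at 24 and 72 h with overlap (n = 3 each).

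**Figure D3:**
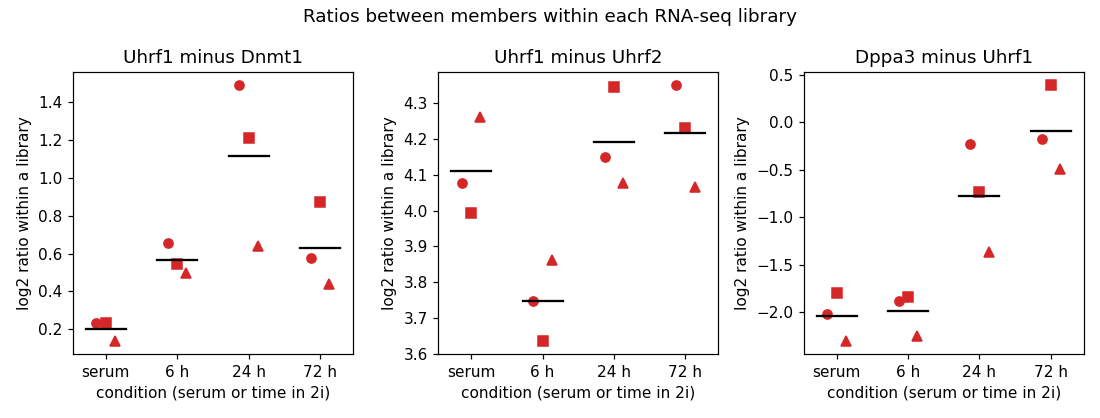
Log2 ratios between members within each RNA-seq library (y axis) by condition (x axis). Circles, squares and triangles are replicates 1, 2 and 3, and lines are means. *Uhrf1* minus *Dnmt1* has its highest mean at 24 h (1.11), and *Dppa3* minus *Uhrf1* climbs from -2.04 in serum to -0.09 at 72 h. The y axes differ between panels.

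Other genes of the pathway were taken from a list of 17, which act with these proteins or on the chromatin they read. At 6 h none was higher and 1 lower, against 15.7% of all genes called in either direction, at 24 h 4 were higher and 5 lower, against 62.9%, and at 72 h 2 were higher and 9 lower, against 51.7%. Their median change was 0.13 at 24 h, near the 0.105 of all genes tested, and -0.36 at 72 h, against -0.005. At 24 h the largest falls were *Ehmt1* (-1.19, limma adjusted p 0.000258) and *Ehmt2* (-1.0, 6.53e-05), which encode the enzymes GLP and G9a that dimethylate H3K9. The largest rises were *Chaf1b* (1.04, 0.000221), a subunit of the histone chaperone CAF-1, and *2810417H13Rik* (0.52, 0.0272), an older symbol of *Pclaf*, whose product binds PCNA. The latter was lower than serum at 72 h (-0.69, adjusted p 0.00842). *Chaf1a*, another CAF-1 subunit in the list, went the other way from *Chaf1b* at 24 h (-0.84, limma adjusted p 0.00223).

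Among genes of de novo methylation, *Dnmt3a*, *Dnmt3b* and *Dnmt3l* changed by more than any of the 6 genes at 24 and 72 h. Of *Dnmt3a*, *Dnmt3b*, *Dnmt3l* and *Prdm14*, 3 were lower and 1 higher at each time, beside 15.7%, 62.9% and 51.7% of all genes called at 6, 24 and 72 h, with a median of -2.76 at 24 h. *Dnmt3l*, the cofactor of the de novo enzymes, fell by 3.60 at 24 h (limma adjusted p 3.50e-08), against a fall of 0.83 for *Dnmt1*. *Dnmt3b*, a de novo enzyme, was at -3.34 (4.12e-08) and *Prdm14*, a factor that represses these genes, was higher by 1.27 (3.03e-05). The summed level of the 4 genes, on the linear scale, went from 182 to 202 in serum to 24.9 to 27 at 24 h.

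Of 22 S phase genes, 19 did not pass the test at 6 h, 10 at 24 h and 13 at 72 h. At 6 h 2 were higher and 1 lower, at 24 h 5 higher and 7 lower, and at 72 h 1 higher and 8 lower, with a median of -0.29 at 72 h, and each of these shares lay below that of all genes (15.7%, 62.9% and 51.7%). Their summed linear level was 913 to 930 in serum, 948 to 991 at 6 h, 742 to 868 at 24 h and 688 to 771 at 72 h, so every 6 h library was above and every later library below the serum libraries, and the part of this in the members' changes was not tested. At 24 h *Ccne1* (-1.43, limma adjusted p 1.17e-05), a cyclin of S phase entry, and *Cdc6* (-0.87, 0.000166), which licenses origins, fell most. *E2f1* (0.78, 0.000248) and *Gins2* (0.70, 0.0286), of the replicative helicase, rose most at that time. *Mcm2* to *Mcm7*, also of that helicase, lay between -0.43 (*Mcm4*) and -0.18 (*Mcm7*). Of these, *Mcm2* (0.00689), *Mcm4* (0.00645) and *Mcm5* (0.033) were called lower. *Gins2* was at -0.035 at 72 h (adjusted p 0.915). Of 14 genes of naive pluripotency, 5 were higher and 5 lower at 6 h (15.7% of all genes called), 6 higher and 6 lower at 24 h (62.9%) and 7 higher and 5 lower at 72 h (51.7%). The largest rises at 24 h were *Dppa5a* (1.58, 0.00308) and *Nanog* (1.55, 1.95e-05), beside the 1.35 of *Dppa3*, and the largest falls were *Klf5* (-1.73, 0.000199) and *Dppa2* (-1.68, 1.24e-06), which were at -0.16 (0.623) and -0.71 (0.0005) at 72 h. The 6 markers of two-cell-like cells, of which 5 were tested, summed to 38.9 to 62.5 in serum, 40.7 to 55.7 at 6 h, 58.9 to 95.1 at 24 h and 45.3 to 63.1 at 72 h, with *Tcstv1* (1.37, 0.00107) and *Tcstv3* (1.34, 0.0191) called higher at 24 h.

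Likeness of pattern over the 12 libraries was measured as Pearson's r, as a description of libraries that share 4 conditions. Among the members, *Hells* and *Usp7* had an r of 0.94 and *Dnmt1* and *Usp7* one of 0.92. *Dppa3* ran opposite to *Hells* (-0.88) and *Usp7* (-0.79), and *Uhrf1* was little related to *Hells* (0.10) and *Usp7* (0.15). Among the 12295 genes of distinct symbol tested, those most like each member were *Ppp1r26*, *Rnf8* and *Pbx3* for *Uhrf1* (0.940 to 0.929) and *Fam122b*, *Whsc1* and *Hlf* for *Uhrf2* (0.983 to 0.958). They were *Paxip1*, *Akap12* and *Qrich1* for *Dnmt1* (0.994 to 0.992) and *Zdbf2*, *Jmjd1c* and *Med14* for *Hells* (0.995 to 0.991). *Cpne1*, *Ncoa3* and *Luzp1* were nearest to *Usp7* (0.996 to 0.994) and *Tmem92*, *Cryz* and *Dnpep* to *Dppa3* (0.990 to 0.987).

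H3K9me2, the mark read by UHRF1, was then followed over the genes themselves. Reads of all bins overlapping a gene were summed and set over the input of the same condition, as log2 bound over input of libraries scaled to one depth. This scaling sets each library to the same total, so a loss of the mark over the whole genome would not be seen. Libraries held 14396552 to 23785128 reads in bins. Of 21543 genes with 20 or more reads in each input, 20793 with reads in every bound library were tested. Each condition has 1 input, whose counting error is shared by both bound libraries and is not in the test. No source used here says whether the 2 bound libraries came from separate cultures, so these p-values may measure technical spread alone.

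All 6 genes were below the median gene in H3K9me2 in serum (-0.93 on this scale). *Uhrf2* was the highest of them, at 38.2% of input (mean log2 -1.39 ± 0.08, SD, n = 2 here and below), at percentile 39.2 of the genes tested. *Dnmt1* (22.6%), *Dppa3* (22.1%), *Usp7* (17.7%), *Uhrf1* (15.2%) and *Hells* (12.7%) followed, and *Hells* lay at percentile 9.9. Bound reads were few, with 10 and 11 over *Dppa3*, 35 and 42 over *Uhrf1* and 260 and 292 over *Uhrf2* in the serum libraries.

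After 24 h of 2i, *Uhrf2* had lost part of this signal. Its serum libraries stood at -1.33 and -1.45 and its 24 h libraries at -2.03 and -1.98, below both. The change was -0.61 (SE 0.13, limma adjusted p 0.00976), and *Uhrf2* was the 1 member called, against 4.94% of genes tested. Centred on the median gene of each library, a scaling added after the data were seen, it was -0.56 (adjusted p 0.0180) and again the 1 member called, against 3.02%. It was not called when the first serum library or either 24 h library was left out (adjusted p 0.121 to 0.188), nor without a variance trend in the fit (0.242). *Uhrf1* stood at -2.61 and -2.82 in serum and at -2.17 and -2.23 at 24 h, without overlap and in the other direction, with a change of 0.51 (SE 0.29, adjusted p 0.344, 95% counting interval -0.01 to 1.04). Serum and 24 h libraries lay apart for 3 of the 6 genes, these and *Dppa3*, against 52.3% of genes tested. The remaining 4 differed by -0.18 (*Dnmt1* and *Hells*), 0.02 (*Usp7*) and 0.31 (*Dppa3*), with adjusted p of 0.653 to 0.953.

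In LT2i, *Dnmt1*, *Usp7* and *Uhrf1* came to about the same low level. *Dnmt1* went from -2.06 and -2.23 in serum to -4.13 and -4.16, a change of -2.0 (SE 0.18, limma adjusted p 2.49e-08). *Usp7* went from -2.64 and -2.35 to -4.23 and -4.23, a change of -1.73 (SE 0.14, adjusted p 5.43e-09). Its bins follow the deposited span, part of which lies before the RefSeq start at 8738342. *Uhrf1*, with 11 bound reads in each LT2i library, went to -4.28 and -4.06. Its change was -1.45 (SE 0.29, limma adjusted p 0.000241, 95% counting interval -2.19 to -0.72). These 3 genes then held 5.64%, 5.33% and 5.56% of input, at 0.96 to 1.19 bound reads per bin in each library, so their shared level lay near the floor. *Uhrf2* stood at -1.91 and -2.16, a change of -0.64 (SE 0.125, limma adjusted p 0.000200), close to its 24 h libraries. The counting error of bound and input reads was larger than the SE for *Uhrf1* (0.38), *Dnmt1* (0.23), *Usp7* (0.17) and *Uhrf2* (0.135). The p-values of these changes thus overstate their precision. *Hells*, at -3.29 and -3.26, changed by -0.30 (adjusted p 0.306), or by -0.57 and -0.034 without the first or the second serum library, and *Dppa3*, at -1.98 and -2.90, by -0.26 (adjusted p 0.674, 95% counting interval -1.42 to 0.90).

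In LT2i 4 of 6 members were called, against 65% of genes tested, and all 4 were lower, as were 57.8% of genes, and the median of the changes over all genes tested was -0.70, while the median level went from -0.93 to -1.85. Serum and LT2i libraries lay apart for 5 of 6, all but *Dppa3*, against 82.5%. After the same centring, 2 members were called, against 53.2% of genes. *Dnmt1* was lower by -1.09 (limma adjusted p 2.82e-05) and *Usp7* by -0.82 (7.27e-05). *Uhrf1* stood at -0.54 (0.123), while *Hells* (0.61, 0.0543), *Dppa3* (0.65, 0.308) and *Uhrf2* (0.27, 0.0578) turned to the other side of 0 without passing the threshold. On the percentile scale *Dnmt1* moved from 23.5 in serum to 10.4 in LT2i and *Usp7* from 16.9 to 9.4, whereas *Hells* moved from 9.9 to 24.8 and *Dppa3* from 22.8 to 39.8.

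**Figure D4:**
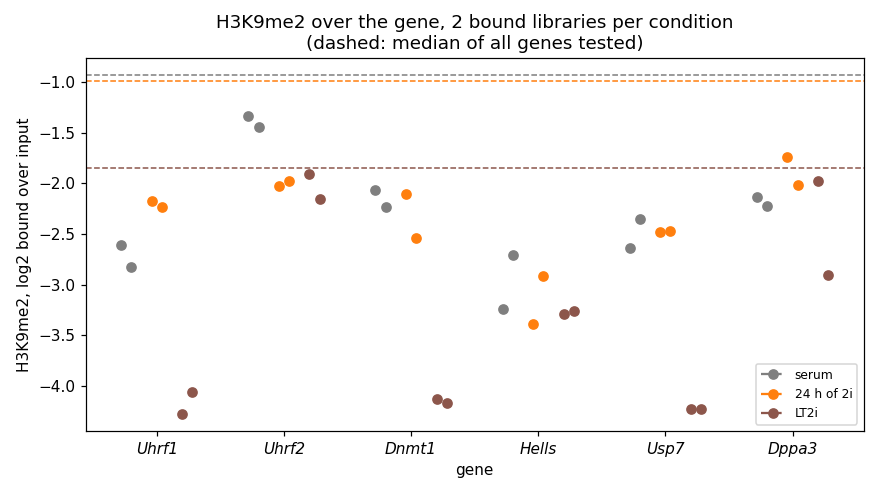
H3K9me2 over each gene (log2 bound over input, y axis) in serum (grey), 24 h of 2i (orange) and LT2i (brown). Each point is 1 bound library and the dashed lines are the medians of the 20793 genes tested (-0.93, -0.99 and -1.85). The LT2i points of *Uhrf1*, *Dnmt1* and *Usp7* lie near -4.2, and *Uhrf2* is the nearest to the median line in serum and in LT2i.

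Within genes the mark was uneven. Over *Uhrf2*, the 16 bins nearest the start held 28.2% of input in serum (99 and 91 bound reads) and the 16 bins farther on 46.9% (193 and 169). In LT2i the same parts held 15.3% (47 and 44 reads) and 35.0% (114 and 73). The highest *Uhrf2* bin in serum, chr19:30086001-30088000, had 27 bound reads in each library against 20 in the input, which is 1.39 times input. In LT2i the neighbouring bin, chr19:30084001-30086000, was the highest, with 19 and 15 reads against 12, or 1.29 times input. In *Dnmt1*, 1 bin 36.9 kb past the start, chr9:20922001-20924000, was at 0.95 of input in serum and 0.68 at 24 h, and in LT2i no *Dnmt1* bin passed 0.30. Bins with no bound read in either library rose from 0 of 27 to 5 of 27 in *Dnmt1* and from 1 of 53 to 10 of 53 in *Usp7* between serum and LT2i. They also rose from 1 to 4 of 20 in *Hells*, 0 to 2 of 11 in *Uhrf1* and 0 to 1 of 32 in *Uhrf2*, and stayed at 0 of 3 in *Dppa3*. Over all bins, 1.3% and 1.52% were empty in the single serum libraries and 4.51% and 5.44% in those of LT2i. The 20 kb on both sides held more than the gene itself in serum for 5 of the 6 genes, by most at *Hells* (40.7% against 12.9% of input) and *Uhrf2* (65.9% against 38.2%) and by least at *Usp7* (20.4% against 17.8%). Around *Dnmt1* they held less in serum (14.9% against 22.7%) and more in LT2i (9.7% against 5.6%), but there 28 of the 64 bound reads lay in 1 bin, and the other 19 bins held 5.6%, as the gene did. Without the bin of most reads, a setting added after the data were seen, the order in serum was the same for all 6 genes.

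**Figure D5:**
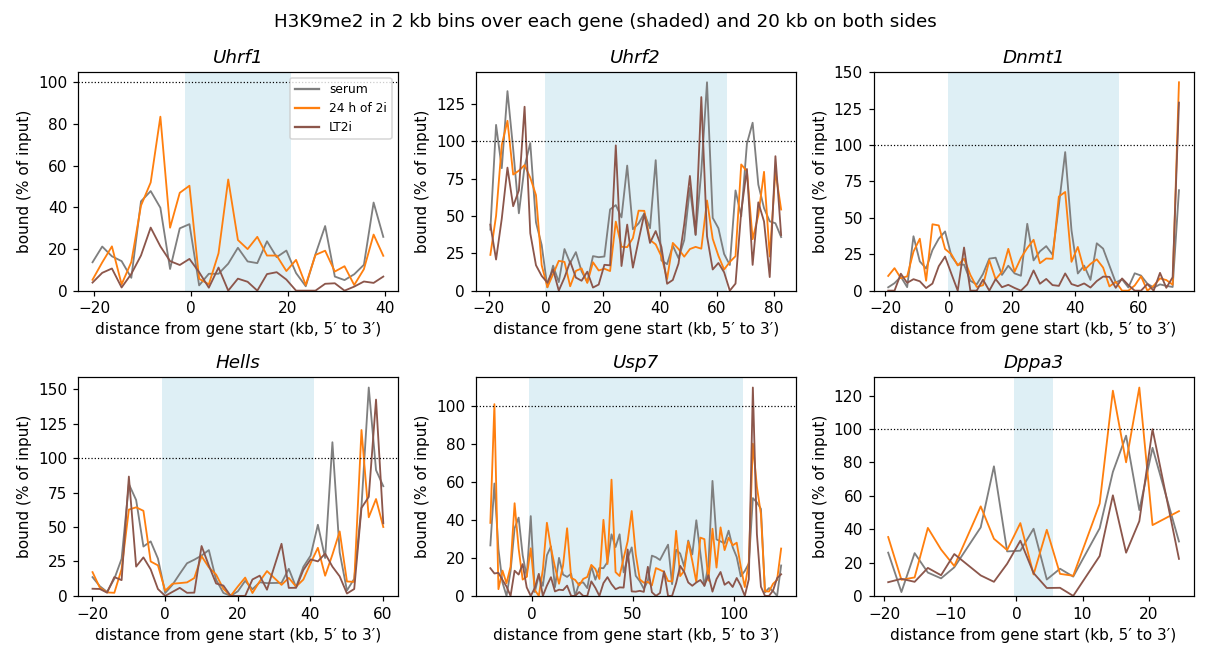
H3K9me2 as mean bound signal in percent of input (y axis) in 2 kb bins by distance from the gene start in the direction of transcription (kb, x axis), over each gene (shaded) and 20 kb on both sides. Lines are serum (grey), 24 h of 2i (orange) and LT2i (brown), and the dotted line is 100%. The LT2i line lies low over *Dnmt1*, *Usp7* and *Uhrf1*, and single peaks rest on few reads, such as 27 in each library at the highest *Uhrf2* bin in serum.

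The bins that hold the CpG-rich RefSeq starts had few bound reads in serum, beside a median of 7 in both libraries together over all bins that hold a gene start. In the serum libraries the bins held 1 and 0 reads at *Uhrf2* (input 23), 0 and 1 at *Hells* (25), 1 and 0 at the inner *Uhrf1* start (20), 1 and 2 at *Usp7* (20) and 1 and 2 at the innermost *Dnmt1* start (23), a bin shared with the middle start, which has 7 CpGs. At the CpG-poorer outer starts shown above, the bins held 7 and 5 reads at *Dnmt1* (26) and 6 and 10 at *Uhrf1* (26). The bin of the deposited *Usp7* start held 5 and 8 (16). In LT2i the outer *Dnmt1* and *Uhrf1* bins held 2 and 2 reads (16) and 0 and 4 (13). The CpG-rich ones then held 2 and 0 at *Uhrf2* (16), 0 and 0 at *Hells* (20), 1 and 2 at *Uhrf1* (16), 1 and 0 at *Usp7* (16) and 0 and 0 at *Dnmt1* (14). With so few reads, a link with CpG content was not tested. Of the bins that hold the deposited gene start, those of *Dnmt1* and *Dppa3* alone had reads in all 6 bound libraries and could be tested, and neither was called in LT2i (-1.03, limma adjusted p 0.379, and 0.29, adjusted p 0.812). Over the 22570 bins that hold a gene start in the deposited table, 9.79% had no bound read in serum, 10.8% at 24 h and 14.4% in LT2i.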

How the data were processed

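The authors deposited RNA-seq as log2 values per gene, corrected for length and depth, and H3K9me2 ChIP-seq as the log2 of read numbers in 2 kb bins, brought to the depth of the largest library, for E14 ESCs. Trim Galore 0.3.5, TopHat2 2.0.11 and Bowtie2 are among the tools of the submitters' processing notes, with no role given, and GRCm38 among the builds. Read totals of RNA-seq are unknown, and the library kit keeps no strand. The study states 3 biological replicates. ChIP-seq reads were recovered by undoing the log and the scaling. All values were whole within 2% of the read number, a check that says little for bins of many reads. Bins with fewer than 8 scaled reads in an input are absent. Bisulfite libraries use NCBIM37 and were not used here.

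All genes were fitted in limma 3.58.1 (R 4.3.3) with Benjamini-Hochberg adjustment, RNA-seq with 12 libraries in 1 fit and ChIP-seq with a variance trend. Scripts were tested on simulated data. Exact permutation tests used scipy 1.17.1. Members and gene lists were chosen with earlier results of these data known. Members are named throughout. From each list the 2 largest rises and falls at 24 h past the threshold are named, and for each member the 3 genes of highest r. Other listed subunits of the complexes of *Chaf1b* and *Gins2* were added after the data were seen. Alternatives covered filters, scalings, inputs, regions, the replicate block and leaving out each library.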

Additional observations from a re-analysis of the deposited data

Results flagged for a closer look

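The change from serum differed between 6 and 24 h for all 6 genes (limma on the difference, adjusted p under 0.05). The difference, 24 h minus 6 h on the log2 scale, was -0.82 for *Dnmt1*, -0.27 for *Uhrf1*, -0.72 for *Uhrf2*, -0.94 for *Hells*, -0.92 for *Usp7* and 0.94 for *Dppa3*. Between 24 and 72 h it differed for *Usp7* (0.48), a call that several of the fits without 1 library did not make. Such differences were called for 59.2% of all genes tested from 6 to 24 h and for 31% from 24 to 72 h. The *Uhrf1* call from 6 to 24 h was lost in 5 of the 6 fits without 1 library, with no filter on low values (adjusted p 0.0774) and with only the 6 libraries compared (0.108). The serum libraries cancel in these differences.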

How the results depend on the processing

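The deviations of same-numbered libraries of different RNA-seq groups correlated over 0.1 in 15 of 18 pairs (r -0.25 to 0.81), against 11 of 36 pairs of different number (-0.86 to 0.75), and 7 of 12 libraries matched their own number best. This leans towards an effect shared by number, but the labels name no shared source and not every pair passed 0.1, so the numbers were not taken as pairs. With a replicate block, calls over the 12306 genes tested went from 3818 to 5622 between 24 and 72 h and from 1934 to 2606 at 6 h. Beside this general rise, 3 members were called between 24 and 72 h in place of 1. They were *Dnmt1* (0.0387), *Usp7* (0.0151) and *Dppa3* (0.0191, adjusted p in limma), and *Hells* was called at 6 h (0.0413). The 24 h H3K9me2 count went from 1028 to 1975 genes. In ChIP-seq the same-numbered deviations were unrelated (r 0.00 to 0.07).

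Genes called at 6 h went from 1934 to 3485 with only the 6 libraries compared (5 members in place of 2) and to 1271 to 1451 with 1 library left out (1 to 2 members). A single member was called at 6 h with no filter or quantile normalisation. Between 24 and 72 h the 3818 calls became 1564 with only the 6 libraries compared and 2369 to 6618 with 1 left out (0 to 2 members), lowest without the first 72 h and highest without the third 24 h library. No member was called there with no filter or only the 6 libraries. Requiring a log2 change of 1 left 658, 3375 and 2576 genes at 6, 24 and 72 h, 2711 from 6 to 24 h and 1170 from 24 to 72 h, with 0 members at 6 h and at both steps. The 1028 genes called for H3K9me2 at 24 h became 456 with bound reads alone, 510 with the summed inputs, 230 in start bins, 628 after median centring and 0 with no variance trend, and 0 to 372 with 1 library left out (0 to 1 members), so this count rests on single libraries. In LT2i the 13524 of 20793 genes called became 2413 of the 11709 genes whose start bin could be tested, as for the 230 at 24 h. *Dnmt1* and *Dppa3* were the sole members among these 11709, and 0 were called at either time. After median centring 2 members were called in LT2i, against 53.2% of genes.

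Signs turned for these values, of which *Uhrf2* in LT2i alone was called as reported (-0.64). In RNA they were *Dnmt1* at 6 h (0.068 after quantile normalisation, 0.01 after median centring, -0.082 to 0.098 with 1 library left out) and *Uhrf1* at 24 h (-0.10 and -0.06 after quantile normalisation and span trend removal) and from 24 to 72 h (0.15 and 0.10, and -0.055 to 0.039 with 1 left out). They were also *Uhrf2* at 24 h (-0.009 after quantile normalisation, -0.035 to 0.041 with 1 left out), at 72 h (0.078 after span trend removal, -0.131 to 0.025) and from 24 to 72 h (-0.135 to 0.022). With the span trend removed *Uhrf2* was called at 24 h (0.30, adjusted p 0.0109). *Dppa3* minus *Uhrf1* at 6 h ran from -0.075 to 0.184. In H3K9me2 at 24 h the values that turned were *Usp7* (-0.017 with bound reads alone, -0.024 with summed inputs, -0.122 to 0.168), *Dppa3* (-0.33 and -0.34), *Hells* (-0.446 to 0.089) and *Dnmt1* (-0.393 to 0.038). In LT2i *Dppa3* was at 0.29 in its start bin and at -0.72 to 0.20 with 1 left out, and after median centring *Uhrf2* (0.27, adjusted p 0.0578), *Hells* (0.61) and *Dppa3* (0.65) turned. With 10 kb on both sides added, *Hells* (-0.62) and *Dppa3* (-0.80) were called lower in LT2i. The cause of these shifts was not tested.

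Few bound reads limit *Dppa3*, *Uhrf1* and all start bins, 2 bound libraries and 1 input limit each H3K9me2 comparison, and unknown RNA read totals leave the precision of single RNA values unknown.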
